A study of Mus musculus with 12 samples.

Results

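The endoplasmic reticulum (ER) is where secreted and membrane proteins, collagens among them, are folded, oxidised, glycosylated and checked. This account follows 31 genes of that work and of the stress response that adjusts it, taken by symbol from the array's platform annotation: ER chaperones and their cochaperones, protein disulfide isomerases, ER-associated degradation, the transcription factors and targets of the unfolded protein response (UPR), and collagen folding and lysyl hydroxylation. Of the 31 genes, 29 had an annotated probe and 27 were measured above background and tested, out of 10797 named genes tested in all. Dnajb11 and Fkbp10 had no annotated probe, and Canx and Manf each had 1 probe that was detected on 0 of the 12 arrays. The 29 genes were represented by 51 rows of the raw table, of which 44 passed the detection filter.

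Gene expression was measured on single-colour Illumina bead arrays in 12 mouse samples, in a 3-way comparison of cells by tissue of origin. The groups were kidney-derived cells that resemble mesenchymal stem cells (MSC; 4 arrays), heart-derived cells of the same description (4 arrays) and bone marrow MSC (4 arrays). The labels give neither strain, age, passage, treatment nor the source animals, and the replicates are described only as biological. The p-values therefore reflect no more than the variation among these 12 samples, which may be technical. Kidney-derived and heart-derived cells carry the label of a likeness to marrow MSC and not of the MSC type itself.

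Across the arrays the mean raw intensity lay between 753.7 and 1065.8 units and the median between 129.8 and 149 units, and arrays of 1 tissue correlated at 0.984 to 0.995. The number of arrays limits the precision. Bone marrow replicate 1 had the lowest mean intensity and stood apart: it gave the lowest of the 4 marrow values for 21 of the 27 genes. The like count over all genes was not made. The mean normalised log2 level over all 10797 genes was 8.993 on that array and 9.017 to 9.033 on the other marrow arrays. Over the 27 genes it was 11.37 against 11.599 to 11.664. Every array detected each of the 11 MSC markers that had a probe, and their normalised levels, summed on the linear scale, came to 56149.6 to 62421.5 in kidney-derived cells, 100425.5 to 106826.8 in heart-derived cells and 52534.1 to 72680.8 in marrow MSC. Of these 11 genes, 2 were higher and 3 lower in kidney-derived cells against marrow MSC (19.9% and 24.3% of all genes tested). In heart-derived cells against marrow MSC 6 were higher and 2 lower (26.4% and 29.6%). In kidney-derived against heart-derived cells 2 were higher and 6 lower (24.9% and 24.1%). Of the macrophage markers, 7 of 10 were detected on none, Ptprc, Itgam, Tyrobp and Adgre1 among them, and the 10 summed to 625.6 to 680.8 in kidney-derived cells, 944.3 to 1134.6 in heart-derived cells and 1028.9 to 1179.4 in marrow MSC. The macrophage markers Cd14, Csf1r and Lyz2 were detected on all 12 arrays, and all 3 were lower in kidney-derived than in heart-derived cells. Against marrow MSC, 0 of these 3 were higher and 1 lower in kidney-derived cells, and 2 higher and 1 lower in heart-derived cells. The 6 osteoblast markers summed to 265.7 to 289.1 in kidney-derived cells, 228.6 to 268.5 in heart-derived cells and 474.5 to 522.1 in marrow MSC, with Bglap and Dmp1 detected on none. The 7 markers of B and plasma cells, which are rich in ER, summed to 688.1 to 1016.4 in kidney-derived cells, 708.2 to 869.2 in heart-derived cells and 1192.4 to 1786.8 in marrow MSC, with Irf4, Mzb1 and Pou2af1 detected on none. The 9 endothelial markers summed to 2025.9 to 2430 in kidney-derived cells, 1529.6 to 1707.5 in heart-derived cells and 1579 to 1795.5 in marrow MSC, with Kdr and Vwf detected on none. The 10 renal epithelial markers summed to 653.7 to 724.2, 501.2 to 556.1 and 471.1 to 545 in the same order of tissues, with Epcam, Krt18, Pax8 and Aqp2 detected on none. The 9 cardiomyocyte markers summed to 279.2 to 334.4, 287.2 to 326.5 and 284.7 to 329.6, and 0 of them passed the detection filter. On all 12 arrays, Phex (osteoblast), Sdc1 (B and plasma cell), Eng (endothelial, also an MSC marker) and Krt8 (renal epithelial) were detected. The part of other cell types in the differences below was not tested, and in such bulk samples fewer cells of a type and less RNA per cell cannot be told apart.

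When unfolded proteins build up in the ER, sensors in its membrane start the UPR. One branch splices Xbp1 mRNA, another releases the factor ATF6, and both raise chaperones, disulfide isomerases and the machinery of ER-associated degradation. A further branch, through the kinase PERK, slows translation and favours production of ATF4, which switches on amino acid supply genes and the stress factor Ddit3 (CHOP). Stromal cells secrete large amounts of collagen, and so depend on this machinery and on dedicated collagen chaperones and hydroxylases.

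The largest changes were those of Plod2, a lysyl hydroxylase that modifies the telopeptides of collagen, and of Trib3, Ddit3 and Chac1 of the ATF4 branch. Plod2 was highest in kidney-derived cells, intermediate in heart-derived cells and lowest in marrow MSC. Trib3, Chac1, Ddit3 and, by less, Atf4 were lower in heart-derived cells than in either other tissue. Several chaperones and disulfide isomerases, with Xbp1 and Syvn1, were lower in kidney-derived cells than in marrow MSC.

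All levels below are normalised log2 intensities of 1 row per gene, the brightest, and all changes are differences of group means on that log2 scale with their standard error (SE). A change was called at a Benjamini-Hochberg adjusted p under 0.05 over all 10797 genes, from 1 limma fit of the 12 arrays. The 3 comparisons share samples. In kidney-derived cells against marrow MSC, 3 of the 27 genes were higher and 10 lower, where 19.9% of all genes tested were higher and 24.3% lower. In heart-derived cells against marrow MSC, 4 were higher and 10 lower, against 26.4% and 29.6% of all genes. In kidney-derived against heart-derived cells, 8 were higher and 9 lower, against 24.9% and 24.1% of all genes. Without marrow replicate 1, the counts higher and lower were 2 and 14, 4 and 14, and 11 and 10 in the same order. The calls over all 10797 genes rose too, to 5020, 6122 and 5691, from 4769, 6042 and 5290 with all arrays. An F test across the 3 tissues called 22 of the 27, where 68.3% of all genes were called. A call at 2-fold or more was made for 1 of the 27 in each comparison: Plod2 in kidney-derived cells against marrow MSC (8.46% of all genes), Trib3 in heart-derived cells against marrow MSC (14.0%) and Trib3 in kidney-derived against heart-derived cells (10.8%). The median absolute log2 change of the 27 was 0.23 in kidney-derived cells against marrow MSC, 0.27 in heart-derived cells against marrow MSC and 0.26 in kidney-derived against heart-derived cells. Over all genes it was 0.27, 0.35 and 0.29 in the same order. The median signed change of the 27 was -0.15, -0.13 and -0.11, against -0.04, -0.03 and 0.02 for all genes. The highest mean was in kidney-derived cells for 8 of the 27 genes, in heart-derived cells for 4 and in marrow MSC for 15, while 27.7%, 33.8% and 38.5% of all genes were highest in those tissues.

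**Figure D1:**
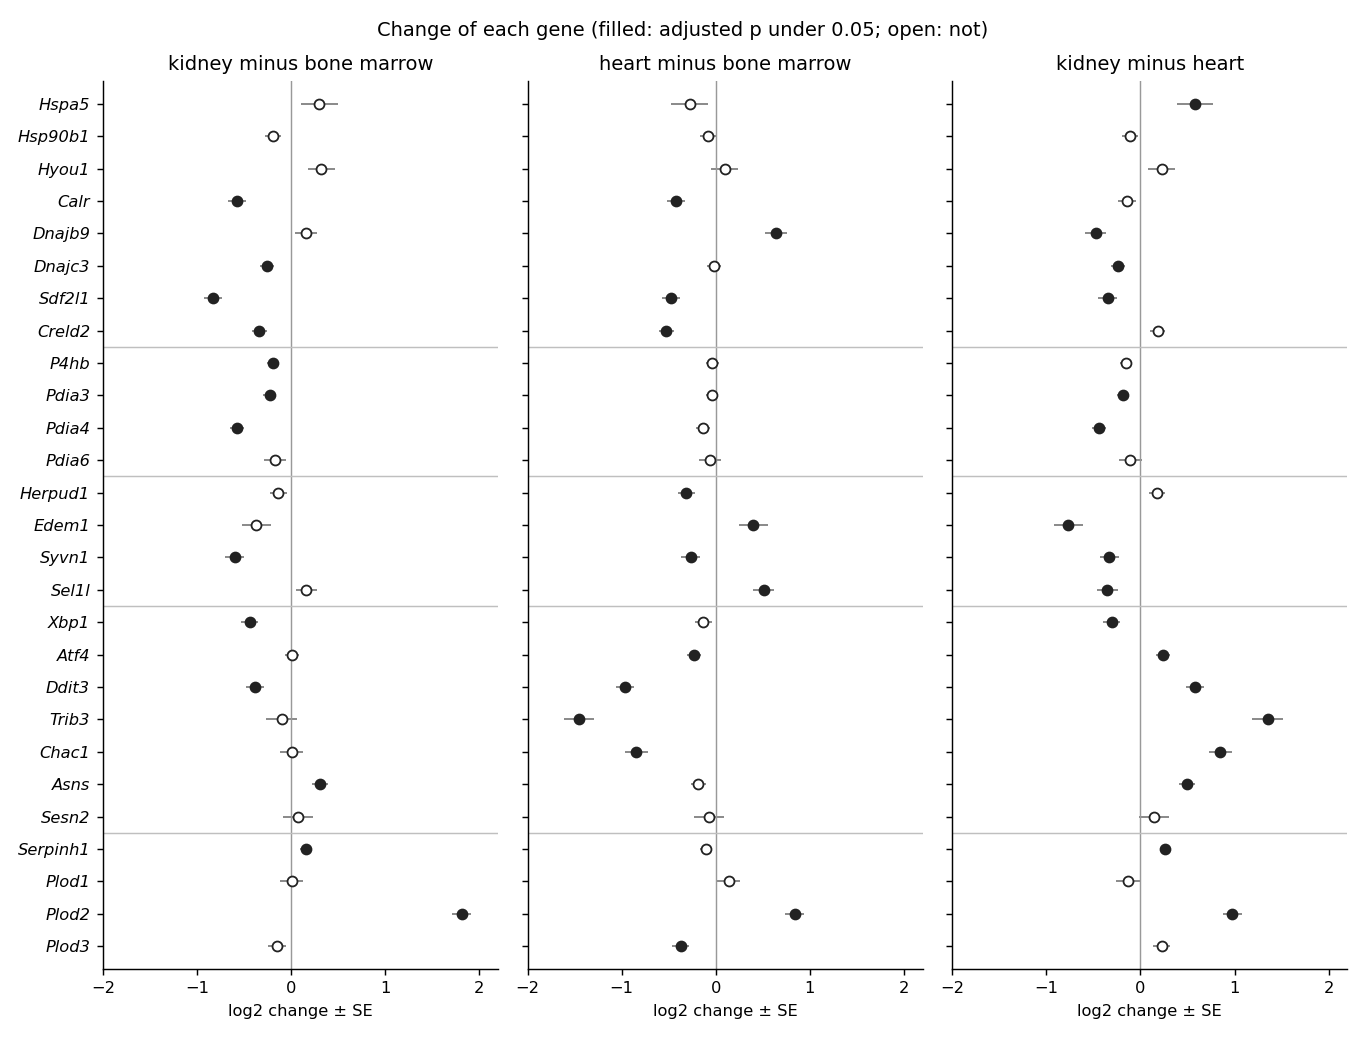
Log2 change of each of the 27 genes (x axis, mean difference ± SE) in the 3 comparisons, with genes in rows by role. Filled points passed the adjusted p threshold. Plod2 at 1.81 in kidney-derived cells against marrow MSC lies farthest to the right, and Trib3 at -1.45 in heart-derived cells against marrow MSC farthest to the left.

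**Figure D2:**
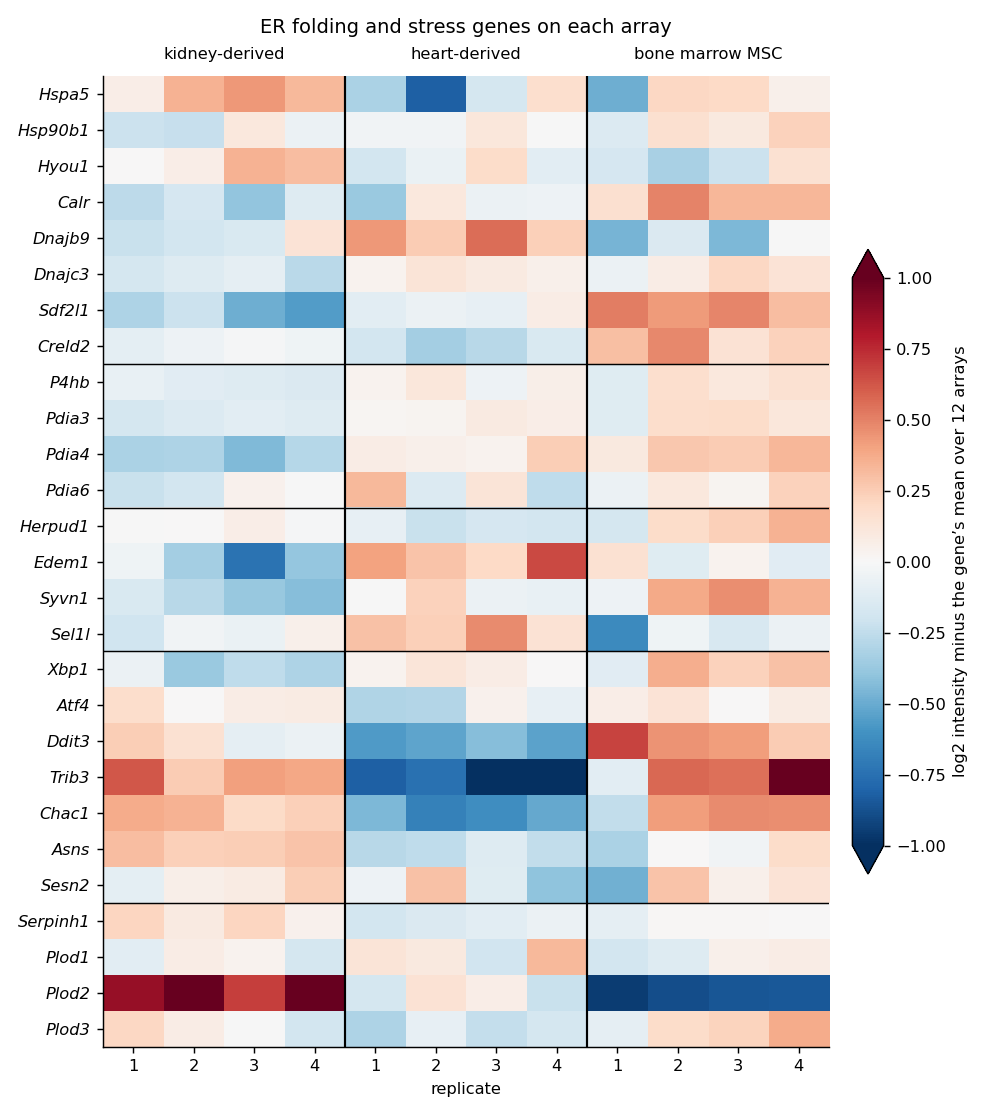
Level of each gene on each array as log2 intensity minus the gene's own mean over the 12 arrays, with kidney-derived, heart-derived and marrow arrays from left to right and colours capped at 1 log2 unit. The heart-derived columns are blue for Ddit3, Trib3 and Chac1, the kidney-derived columns are red for Plod2, and marrow replicate 1 is paler or bluer than the other marrow arrays for most genes.

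Of the 7 UPR transcription factors and ATF4 targets, Atf4, Ddit3, Trib3 and Chac1 were lower and 0 were higher in heart-derived cells against marrow MSC (29.6% and 26.4% of all genes). In kidney-derived against heart-derived cells 5 were higher and 1 lower (24.9% and 24.1% of all genes). Heart-derived cells lay below both other tissues without overlap for Ddit3, Trib3 and Chac1, and Asns and Sesn2 did not pass in heart-derived cells against marrow MSC. Atf4 encodes the transcription factor of the integrated stress response, whose level is largely set by translation. Its log2 intensity was 13.45, 13.28, 13.35 and 13.36 in kidney-derived cells, 12.98, 12.98, 13.32 and 13.19 in heart-derived cells, and 13.34, 13.41, 13.28 and 13.36 in marrow MSC. Heart-derived replicates 1 and 2 were the lowest, and replicate 3 lay within the range of the other tissues. Atf4 was lower by a small margin in heart-derived cells than in marrow MSC (log2 change -0.23 ± 0.08, adjusted p = 0.0141) and higher in kidney-derived than in heart-derived cells (0.24 ± 0.08, adjusted p = 0.0119). Both calls were lost without heart-derived replicate 1 (adjusted p = 0.0621 and 0.0532) or replicate 2 (0.0607 and 0.0537). A second, dimmer probe of Atf4 showed -0.56 and 0.40 in these comparisons, with adjusted p = 2.95e-06 and 0.000178 over all probe rows. In kidney-derived cells against marrow MSC the change of Atf4 was 0.01 ± 0.08 (adjusted p = 0.916).

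Ddit3 encodes CHOP, a factor of prolonged ER stress that ATF4 is known to induce. It measured 11.26, 11.16, 10.93 and 10.96 in kidney-derived cells, 10.45, 10.48, 10.59 and 10.48 in heart-derived cells, and 11.69, 11.46, 11.43 and 11.27 in marrow MSC. The 3 groups did not overlap, with heart-derived cells lowest and marrow MSC highest. The log2 change was -0.97 ± 0.09 in heart-derived cells against marrow MSC (adjusted p = 3.96e-08), 0.58 ± 0.09 in kidney-derived against heart-derived cells (adjusted p = 3.98e-05) and -0.39 ± 0.09 in kidney-derived cells against marrow MSC (adjusted p = 0.00244). The raw table lists the Ddit3 identifier on 2 rows with different values, and on the dimmer row the last of these was -0.09, with adjusted p = 0.473 over all probe rows, while the other changes were -0.65 and 0.56 and stayed past the threshold.

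Trib3 encodes a pseudokinase that CHOP and ATF4 induce and that dampens ATF4 activity in turn. It measured 11.14, 10.78, 10.93 and 10.92 in kidney-derived cells, 9.71, 9.78, 9.42 and 9.45 in heart-derived cells, and 10.42, 11.10, 11.08 and 11.58 in marrow MSC. Each heart-derived array was below every array of the other tissues, and marrow replicate 1 was below all kidney-derived arrays. The log2 change was -1.45 ± 0.16 in heart-derived cells against marrow MSC (0.365-fold, adjusted p = 2.61e-07) and 1.35 ± 0.16 in kidney-derived against heart-derived cells (2.56-fold, adjusted p = 9.18e-07). All 3 Trib3 rows showed both differences, with log2 changes of -1.39 to -1.79 and 1.31 to 1.58. In kidney-derived cells against marrow MSC the change was -0.10 ± 0.16 (adjusted p = 0.657), and without marrow replicate 1 it was -0.31 with adjusted p = 0.0327.

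Chac1, a glutathione-degrading enzyme downstream of ATF4, averaged 12.50 ± 0.08 in kidney-derived cells, 11.65 ± 0.10 in heart-derived cells and 12.49 ± 0.35 in marrow MSC (SD, n = 4 each). Its heart-derived range of 11.54 to 11.76 lay below the lowest array of the other tissues, marrow replicate 1 at 11.97. The log2 change was -0.84 ± 0.12 in heart-derived cells against marrow MSC (adjusted p = 5.41e-06) and 0.85 ± 0.12 in kidney-derived against heart-derived cells (adjusted p = 6.38e-06), with 0.01 ± 0.12 (adjusted p = 0.968) in kidney-derived cells against marrow MSC. Asns, asparagine synthetase, averaged 13.78 ± 0.03 in kidney-derived cells, 13.29 ± 0.07 in heart-derived cells and 13.47 ± 0.21 in marrow MSC. All 4 kidney-derived arrays lay above the other 8. It was higher in kidney-derived than in heart-derived cells (0.49 ± 0.08, adjusted p = 4.57e-05) and marrow MSC (0.31 ± 0.08, adjusted p = 0.00436), and its change of -0.18 in heart-derived cells against marrow MSC had an adjusted p of 0.0643, or 0.00116 without marrow replicate 1. The Asns identifier is listed on 3 rows. The dimmer ones gave 0.63 and 1.02 in kidney-derived against heart-derived cells, 0.38 and 1.08 in kidney-derived cells against marrow MSC, and -0.25 and 0.05 in heart-derived cells against marrow MSC (adjusted p = 0.0415 and 0.825 over all probe rows). With the authors' processed values, 1 per identifier, the Asns changes were 1.11, 1.17 and 0.06 in the same order. These lie close to the 1.02, 1.08 and 0.05 of the dimmest row. They may be that row processed otherwise and not a separate reading. Sesn2, sestrin 2, a stress-induced inhibitor of mTORC1, passed in no comparison, with changes of 0.07 in kidney-derived cells against marrow MSC, -0.07 in heart-derived cells against marrow MSC and 0.14 in kidney-derived against heart-derived cells.

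**Figure D3:**
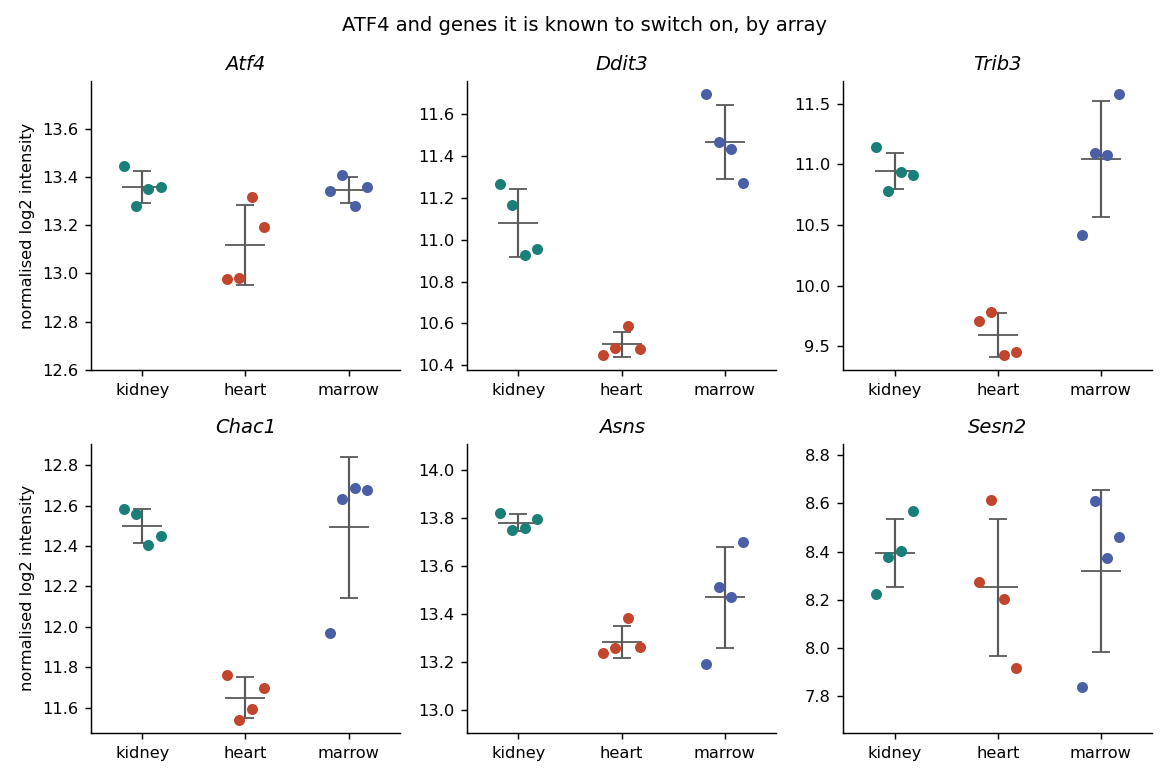
Normalised log2 intensity (y axis, its own range for each gene) of Atf4, Ddit3, Trib3, Chac1, Asns and Sesn2 on each array (points) by tissue, with the group mean and SD of 4 arrays (bars). Heart-derived cells lie lowest for Ddit3, Trib3 and Chac1 with no overlap, while Sesn2 overlaps in all tissues and marrow replicate 1 lies far below the other marrow arrays for Trib3 and Chac1.

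The start-site regions of Trib3, Chac1, Asns and Herpud1 hold the core of the C/EBP-ATF element, to which ATF4 binds with a C/EBP partner. They are shown because they place Trib3, Chac1 and Asns side by side. The motif searched was TGATGNAA on both strands of the RefSeq promoters (GRCm38.p6), from 250 bases before to 50 after each gene's start, which were listed for 27 of the 31 genes. These are not the 27 genes tested. Canx and Dnajb11 are among them, while Plod2, Hyou1, Manf and Fkbp10 had no listed promoter and were not searched. The motif occurred in 4 of these 27 promoters (Asns, Chac1, Herpud1 and Trib3) and in 3.97% of all 32851. The promoters of Atf4, Ddit3 and Sesn2, of the same branch, hold no match. The genes were listed as ER folding and stress genes, so the share among them describes the list. Each sequence below runs 5′ to 3′ on the strand where the motif reads as spelled, with its fixed bases in capitals. The matches lie 15 to 22 bases after the start in Trib3, 193 to 186 before it in Chac1, 23 to 16 before it in Asns and 112 to 105 before it in Herpud1.
Trib3, chr2:152344028-152344057, + strand: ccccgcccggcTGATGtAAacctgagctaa
Chac1, chr2:119351038-119351067, - strand: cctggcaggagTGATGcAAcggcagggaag
Asns, chr6:7693214-7693243, - strand: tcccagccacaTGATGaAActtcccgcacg
Herpud1, chr8:94386306-94386335, - strand: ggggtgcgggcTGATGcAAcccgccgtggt
A match is a description of the letters and not a mapped binding site.

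Other genes of the ATF4 and amino acid response were counted from a list without the 31 genes. Of 31 such genes tested, 10 were higher and 4 lower in kidney-derived cells against marrow MSC, with a median log2 change of 0.13. Of all genes, 19.9% were higher and 24.3% lower there. In heart-derived cells against marrow MSC, 6 were higher and 15 lower (median -0.31), against 26.4% and 29.6% of all genes. In kidney-derived against heart-derived cells 16 were higher and 5 lower (median 0.35), against 24.9% and 24.1% of all genes. Shmt2, the mitochondrial serine hydroxymethyltransferase, was lower in heart-derived cells than in marrow MSC (-1.22 ± 0.09, adjusted p = 6.71e-10) and higher in kidney-derived than in heart-derived cells (1.07 ± 0.09). Slc7a11, the cystine transporter subunit, was higher in kidney-derived than in heart-derived cells (1.50 ± 0.14, adjusted p = 1.98e-08). Vldlr, the very low density lipoprotein receptor, was higher in kidney-derived cells (2.32 ± 0.13) and in heart-derived cells (2.84 ± 0.13) than in marrow MSC. Stc2, stanniocalcin 2, was higher in heart-derived cells than in marrow MSC (1.56 ± 0.17) and lower in kidney-derived than in heart-derived cells (-1.21 ± 0.17). Cebpb, a C/EBP partner of ATF4, was lower in kidney-derived cells than in marrow MSC (-1.08 ± 0.09) and heart-derived cells (-1.04 ± 0.09), and Nupr1, a stress-induced chromatin protein, was higher in kidney-derived cells than in marrow MSC (1.28 ± 0.08).

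Xbp1 encodes the factor whose mRNA the sensor IRE1 splices, and the array probe reads its level and not its splicing. It measured 13.08, 12.76, 12.88 and 12.83 in kidney-derived cells, 13.17, 13.26, 13.21 and 13.14 in heart-derived cells, and 13.02, 13.50, 13.36 and 13.43 in marrow MSC. All kidney-derived arrays were below all heart-derived arrays, and marrow replicate 1 fell among the kidney-derived values. Xbp1 was lower in kidney-derived cells than in marrow MSC (log2 change -0.44 ± 0.09, adjusted p = 0.000514) and heart-derived cells (-0.31 ± 0.09, adjusted p = 0.00788). In heart-derived cells against marrow MSC its change was -0.13 ± 0.09 (adjusted p = 0.226), or -0.24 with adjusted p = 0.00806 without marrow replicate 1.

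Among the 8 ER chaperones and cochaperones tested, 4 were lower and 0 higher in kidney-derived cells against marrow MSC, where 24.3% of all genes were lower and 19.9% higher. In heart-derived cells against marrow MSC 3 were lower and 1 higher, against 29.6% and 26.4% of all genes. Calr, calreticulin, the lectin chaperone of new glycoproteins, averaged 12.54 ± 0.12 in kidney-derived cells, 12.69 ± 0.20 in heart-derived cells and 13.11 ± 0.14 in marrow MSC. Its lowest marrow array, at 12.94, was above the highest heart-derived array, at 12.88. Calr was lower than in marrow MSC in kidney-derived cells (-0.57 ± 0.09, adjusted p = 5.45e-05) and heart-derived cells (-0.42 ± 0.09, adjusted p = 0.000692). Sdf2l1, a cofactor that keeps folding substrates soluble for the chaperone BiP, formed 3 groups without overlap, at 8.85 to 9.19 in kidney-derived cells, 9.30 to 9.48 in heart-derived cells and 9.71 to 9.92 in marrow MSC. Its log2 change was -0.83 ± 0.10 in kidney-derived cells (adjusted p = 9.25e-07) and -0.48 ± 0.10 in heart-derived cells (adjusted p = 0.000323) against marrow MSC, and -0.35 ± 0.10 in kidney-derived against heart-derived cells (adjusted p = 0.00557). Creld2, an ER-stress-induced protein with disulfide isomerase activity, was lower than in marrow MSC in kidney-derived cells (-0.34 ± 0.08, adjusted p = 0.00167) and heart-derived cells (-0.52 ± 0.08, adjusted p = 1.16e-05), without overlap. Dnajc3, the cochaperone p58IPK, was lower in kidney-derived cells than in marrow MSC (-0.26 ± 0.08, adjusted p = 0.00948) and heart-derived cells (-0.24 ± 0.08, adjusted p = 0.0126).

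Dnajb9 (ERdj4), a cochaperone that feeds degradation and restrains IRE1, ran the other way. It averaged 9.92 ± 0.16 in kidney-derived cells, 10.40 ± 0.15 in heart-derived cells and 9.76 ± 0.23 in marrow MSC, and every heart-derived array was above every array of the other tissues. The change was 0.64 ± 0.12 in heart-derived cells against marrow MSC (adjusted p = 8.98e-05) and -0.48 ± 0.12 in kidney-derived against heart-derived cells (adjusted p = 0.00178). Hspa5 (BiP), the central ER chaperone that holds the sensors inactive, was represented by 1 dim row with raw intensities of 171.7 to 325.1 units. It measured 7.22 to 7.59 in kidney-derived cells, 6.33 to 7.32 in heart-derived cells and 6.67 to 7.36 in marrow MSC, and the groups overlapped. Hspa5 was called higher in kidney-derived than in heart-derived cells (0.58 ± 0.19, adjusted p = 0.0174), a call lost without heart-derived replicate 2 (adjusted p = 0.085), without kidney-derived replicate 3 (0.0509) or with no detection filter (0.0523). Hsp90b1 (GRP94) and Hyou1 (GRP170, also dim) passed in no comparison. The nearest to the threshold were Hsp90b1 at -0.19 ± 0.08 (adjusted p = 0.0699, or 0.00471 without marrow replicate 1) and Hyou1 at 0.32 ± 0.14 (adjusted p = 0.0796, or 0.0305 without marrow replicate 4), both in kidney-derived cells against marrow MSC.

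Of the 4 protein disulfide isomerases, 3 were lower in kidney-derived cells than in marrow MSC (24.3% of all genes) and 2 lower than in heart-derived cells (24.1%). Pdia4 (ERp72) averaged 11.83 ± 0.07 in kidney-derived cells, 12.26 ± 0.10 in heart-derived cells and 12.40 ± 0.10 in marrow MSC, with every kidney-derived array below the other 8. It was lower in kidney-derived cells than in marrow MSC (-0.57 ± 0.07, adjusted p = 2.4e-06) and heart-derived cells (-0.44 ± 0.07, adjusted p = 4.82e-05). Pdia3 (ERp57), the partner of calreticulin, was lower in kidney-derived cells than in marrow MSC (-0.23 ± 0.07, adjusted p = 0.00875) and heart-derived cells (-0.19 ± 0.07, adjusted p = 0.0235; 0.0561 without kidney-derived replicate 1, 0.0572 without heart-derived replicate 3 and 0.0723 with no detection filter). P4hb (PDI), which is also the beta subunit of prolyl 4-hydroxylase, was lower in kidney-derived cells than in marrow MSC (-0.19 ± 0.07, adjusted p = 0.0249), a call lost without marrow replicate 2 (adjusted p = 0.0764), 3 (0.0625) or 4 (0.0743), without kidney-derived replicate 3 (0.0539) or 4 (0.0586), and with no detection filter (0.0753). Marrow replicate 1 overlapped the kidney-derived values for both Pdia3 and P4hb. Of the 4 isomerases, 0 passed in heart-derived cells against marrow MSC, where 29.6% of all genes were lower. Pdia4 was called lower there without marrow replicate 1 (-0.18, adjusted p = 0.0341), without heart-derived replicate 4 (adjusted p = 0.0478) and with array weights (adjusted p = 0.0432). Pdia6 (P5) passed in no comparison on its brighter probe (-0.17 ± 0.12 in kidney-derived cells against marrow MSC), while a dim second probe gave -0.99 ± 0.14 in that comparison and -0.70 ± 0.14 in heart-derived cells against marrow MSC (adjusted p = 9.73e-06 and 0.000298 over all probe rows). With the mean of both probes Pdia6 was called lower in both comparisons, at -0.58 (adjusted p = 0.000108) and -0.38 (adjusted p = 0.00275).

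ER-associated degradation sends misfolded proteins back to the cytosol. Syvn1 (Hrd1), its ubiquitin ligase, averaged 12.42 ± 0.12 in kidney-derived cells, 12.75 ± 0.14 in heart-derived cells and 13.02 ± 0.23 in marrow MSC. Syvn1 was lower in kidney-derived cells than in marrow MSC (-0.60 ± 0.10, adjusted p = 6.21e-05) and heart-derived cells (-0.33 ± 0.10, adjusted p = 0.00915). Its call in heart-derived cells against marrow MSC (-0.27 ± 0.10, adjusted p = 0.0292) was lost without marrow replicate 2, 3 or 4 or without heart-derived replicate 1, 3 or 4 (adjusted p of 0.0629 to 0.106). Sel1l, the adaptor that stabilises Syvn1, measured 11.06 to 11.31 in kidney-derived cells, 11.41 to 11.74 in heart-derived cells and 10.62 to 11.22 in marrow MSC, with the heart-derived arrays above all others. It was higher in heart-derived cells than in marrow MSC (0.51 ± 0.11, adjusted p = 0.000607) and lower in kidney-derived than in heart-derived cells (-0.35 ± 0.11, adjusted p = 0.0133; 0.0573 without heart-derived replicate 3). In kidney-derived against heart-derived cells 2 dimmer Sel1l rows gave -0.14 and -0.01 (adjusted p = 0.546 and 0.972 over all probe rows), and with the mean of the kept rows the change was -0.17 and the call was lost (adjusted p = 0.299). Edem1, a lectin that hands over trimmed glycoproteins, was called higher in heart-derived cells than in marrow MSC (0.40 ± 0.16, adjusted p = 0.0349) and lower in kidney-derived than in heart-derived cells (-0.77 ± 0.16, adjusted p = 0.000364). These calls rest on 1 dim row whose identifier is listed again on a row that was detected on 0 arrays, and a second Edem1 probe gave -0.09 and 0.11. The Edem1 call in heart-derived cells against marrow MSC was also lost with the mean of both probes (0.15, adjusted p = 0.343), with no detection filter (adjusted p = 0.104), without heart-derived replicate 1 (0.0657) or 4 (0.129), and without marrow replicate 2 (0.0831), 3 (0.051) or 4 (0.0772). Herpud1, a UPR target that organises the degradation complex, was lower in heart-derived cells than in marrow MSC (-0.31 ± 0.09, adjusted p = 0.00456), with marrow replicate 1 among the heart-derived values. In kidney-derived against heart-derived cells Herpud1 did not pass, though without overlap (0.18 ± 0.09, adjusted p = 0.0989, or 0.0162 without marrow replicate 1). The other row of its identifier gave 0.22 there (adjusted p = 0.0422 over all probe rows). In kidney-derived cells against marrow MSC its change was -0.13 (adjusted p = 0.228), or -0.24 with adjusted p = 0.00367 without marrow replicate 1.

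The ER stress response element (ERSE) is a promoter element at which NF-Y and ATF6 or XBP1 bind. The letters searched were CCAAT, 9 bases of any kind and CCACG, on both strands. They occurred in 8 of the same 27 promoters (Calr, Canx, Creld2, Dnajc3, Hsp90b1, Hspa5, Pdia6 and Syvn1) and in 39 of all 32851, or 0.119%. The shorter ERSE-II, ATTGG, 1 base and CCACG, occurred in Dnajb11 and Herpud1 and in 0.0365% of all promoters, and the 8 letters TGACGTGG of the UPR element in 0 of the 27 and 0.676% of all. The genes were listed as ER folding and stress genes, so these shares describe the list. The following 6 are shown to set genes lower in kidney-derived cells than in marrow MSC (Calr, Creld2, Syvn1, Dnajc3) beside others. Those others are Hspa5, which did not pass there on its 1 dim row, and Pdia6, which did not pass on its brighter probe. Each is printed on the strand where the element reads as spelled, with its fixed bases in capitals.
Calr, chr8:84847065-84847103, + strand: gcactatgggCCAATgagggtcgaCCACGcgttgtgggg
Creld2, chr15:88819510-88819548, - strand: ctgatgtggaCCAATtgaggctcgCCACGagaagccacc
Syvn1, chr19:6046522-6046560, + strand: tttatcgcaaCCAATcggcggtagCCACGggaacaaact
Dnajc3, chr14:118937817-118937855, + strand: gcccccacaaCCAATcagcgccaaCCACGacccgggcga
Hspa5, chr2:34772015-34772053, + strand: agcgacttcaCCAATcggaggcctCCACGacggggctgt
Pdia6, chr12:17266481-17266519, + strand: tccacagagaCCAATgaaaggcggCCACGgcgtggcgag
The element was present both in genes that differed between kidney-derived cells and marrow MSC and in genes that did not pass. Pdia6 is an uncertain case, as its dim second probe gave -0.99 there (adjusted p = 9.73e-06 over all probe rows). Hsp90b1, not shown, holds the element on both strands and did not pass (-0.19, adjusted p = 0.0699, or 0.00471 without marrow replicate 1). Herpud1 holds both kinds of element within 100 bases, the C/EBP-ATF core on the opposite strand (capitals on the left) and ERSE-II (capitals on the right).
Herpud1, chr8:94386299-94386398, + strand: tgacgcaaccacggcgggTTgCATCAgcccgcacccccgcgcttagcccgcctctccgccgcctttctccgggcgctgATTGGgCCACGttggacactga

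Collagen folding and lysyl hydroxylation held the widest change of the 27 genes. Plod2 measured 11.58, 11.74, 11.40 and 11.84 in kidney-derived cells, 10.54, 10.85, 10.78 and 10.49 in heart-derived cells, and 9.76, 9.83, 9.85 and 9.86 in marrow MSC. The 3 tissues formed steps with no overlap. The log2 change was 1.81 ± 0.10 in kidney-derived cells against marrow MSC (3.52-fold, adjusted p = 1.24e-11), 0.84 ± 0.10 in heart-derived cells against marrow MSC (1.79-fold, adjusted p = 5.55e-07) and 0.98 ± 0.10 in kidney-derived against heart-derived cells (1.97-fold, adjusted p = 9.35e-08). A second Plod2 probe of similar brightness gave 1.80, 0.79 and 1.01 in these comparisons, while a dim further row under that probe's identifier gave 0.11, -0.31 and 0.43 and did not pass. With the mean of the 3 rows the change in heart-derived cells against marrow MSC was 0.44, past the threshold (adjusted p = 0.000275).

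Of the other lysyl hydroxylases, Plod1, which acts on the helical part of collagen, passed in no comparison, with changes of 0.01 in kidney-derived cells against marrow MSC, 0.14 in heart-derived cells against marrow MSC and -0.13 in kidney-derived against heart-derived cells. Plod3, which also glycosylates hydroxylysine, was lower in heart-derived cells than in marrow MSC (-0.37 ± 0.09, adjusted p = 0.00182), with overlap at 13.57 to 13.80 against 13.79 to 14.26. A dim second Plod3 probe gave -0.28 there (adjusted p = 0.154 over all probe rows). In kidney-derived cells against marrow MSC the brighter probe gave -0.15 (adjusted p = 0.207) and the dim one -0.45 (0.0292 over all probe rows). Plod3 was called lower there with the mean of both probes (0.00998), with array weights (0.0221) or without marrow replicate 1 (0.0184). In kidney-derived against heart-derived cells the probes gave 0.22 and -0.17, neither past the threshold. Serpinh1 (HSP47), the chaperone of procollagen, was read near the top of the scale, with a mean raw intensity of 52980 units where the brightest feature of any array read 64071.3. On kidney-derived replicates 1 and 3 Serpinh1 was itself the brightest feature, at 62841.4 and 62771 units. Serpinh1 therefore took the top normalised value, 15.9, on both arrays, which caps the level read there. It was higher in kidney-derived than in heart-derived cells (0.26 ± 0.06, adjusted p = 0.000952) and marrow MSC (0.16 ± 0.06, adjusted p = 0.0371), the last being lost without marrow replicate 1 (adjusted p = 0.0866), 3 (0.0578) or 4 (0.0553), without kidney-derived replicate 1 (0.102) or 3 (0.111), with no detection filter (0.144) and with array weights (0.0641). A dimmer Serpinh1 probe gave larger changes of 0.60 ± 0.11 and 0.28 ± 0.11 for these comparisons, and -0.32 ± 0.11 in heart-derived cells against marrow MSC, all past the threshold over all probe rows.

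**Figure D4:**
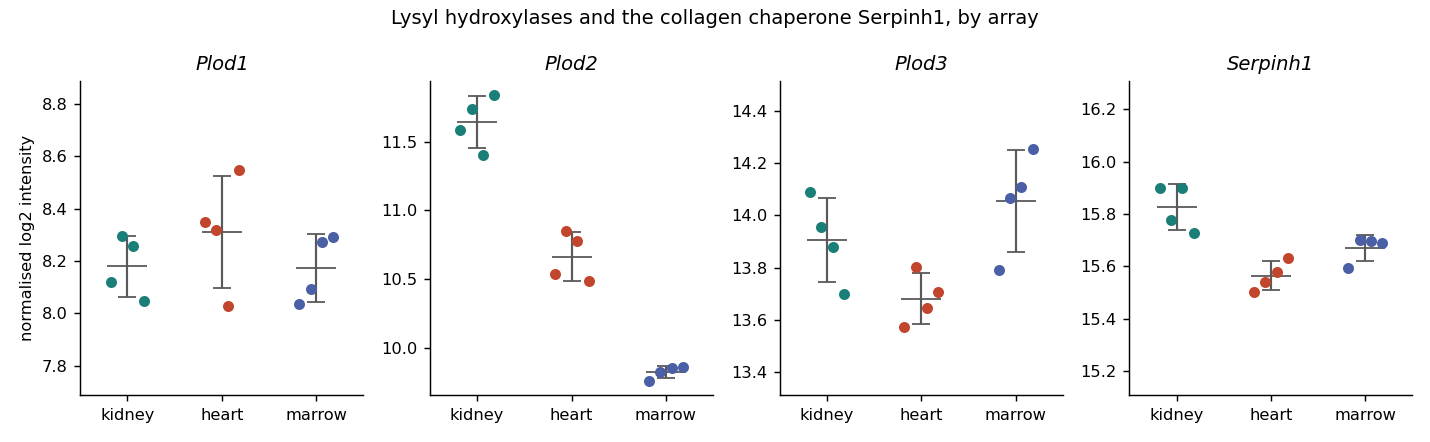
Normalised log2 intensity (y axis, its own range for each gene) of Plod1, Plod2, Plod3 and Serpinh1 on each array (points) by tissue, with the group mean and SD of 4 arrays (bars). Plod2 steps down in 3 separate groups, at 11.40 to 11.84 in kidney-derived cells, 10.49 to 10.85 in heart-derived cells and 9.76 to 9.86 in marrow MSC.

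Over all 44 kept rows of the 27 genes, each tested among 20649 rows, 8 were higher and 13 lower in kidney-derived cells against marrow MSC, where 39.2% of all rows were called. In heart-derived cells against marrow MSC 6 rows were higher and 19 lower (51.6% of all rows called), and in kidney-derived against heart-derived cells 17 were higher and 9 lower (43.8%). Rows of 1 gene are not separate evidence, and the 17 include all 3 rows of Trib3 and all 3 of Asns. By gene, 8 were higher and 9 lower in that comparison. The shares of all rows higher and lower were not counted apart. Of the 27 genes, 18 rested on an identifier with a single row and 9 on one with several rows. For 3 of those 9, Calr, Dnajc3 and Edem1, the other row of the identifier was detected on 0 arrays, and the files do not say which row the annotation means.

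Genes around the 27 in the same pathway were counted from lists. For scale, 19.9% of all genes were higher and 24.3% lower in kidney-derived cells against marrow MSC. These shares were 26.4% and 29.6% in heart-derived cells against marrow MSC, and 24.9% and 24.1% in kidney-derived against heart-derived cells. Of the 20 UPR sensors and regulators, 5 were higher and 4 lower in kidney-derived cells against marrow MSC, 8 higher and 6 lower in heart-derived cells against marrow MSC, and 3 higher and 7 lower in kidney-derived against heart-derived cells. Eif2ak2, the double-stranded RNA kinase PKR that feeds the same eIF2α step as PERK, was lower than in marrow MSC in kidney-derived cells (-1.52 ± 0.15) and heart-derived cells (-1.31 ± 0.15). Creb3l1 (OASIS), an ER-bound factor known for raising collagen genes in bone, was lower in heart-derived cells than in marrow MSC (-1.42 ± 0.16) and higher in kidney-derived than in heart-derived cells (1.58 ± 0.16). Crebrf, a regulator of that factor family, was higher in heart-derived cells than in marrow MSC (1.30 ± 0.18). The sensor genes themselves were looked at after their values were known: Ern1 (IRE1) was 0.54 higher in kidney-derived cells and 0.47 higher in heart-derived cells than in marrow MSC, both past the threshold, and Eif2ak3 (PERK) and Atf6 passed in no comparison.

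Other ER functions were counted in the same way. The shares of all genes higher and lower were again 19.9% and 24.3% in kidney-derived cells against marrow MSC. They were 26.4% and 29.6% in heart-derived cells against marrow MSC, and 24.9% and 24.1% in kidney-derived against heart-derived cells. Of 21 further ER chaperones, 1 was higher and 5 lower in kidney-derived cells against marrow MSC, 7 higher and 7 lower in heart-derived cells against marrow MSC, and 3 higher and 8 lower in kidney-derived against heart-derived cells. Of 21 genes of N-glycosylation, 1 was higher and 8 lower in kidney-derived cells against marrow MSC, 5 higher and 7 lower in heart-derived cells against marrow MSC, and 3 higher and 7 lower in kidney-derived against heart-derived cells. Of 17 further oxidoreductases, the counts of genes higher and lower were 5 and 6, 8 and 6, and 4 and 6 in the same order of comparisons, with Creld1, the relative of Creld2, higher in kidney-derived cells (1.92 ± 0.09) and heart-derived cells (2.40 ± 0.09) than in marrow MSC. Of 22 further genes of ER-associated degradation these counts were 5 and 4, 8 and 5, and 4 and 5. For 23 translocon genes they were 5 and 4, 4 and 6, and 5 and 2, and for 19 genes of COPII export 3 and 4, 5 and 7, and 2 and 2. Of 19 further genes of procollagen modification, 5 were higher and 6 lower, 7 higher and 7 lower, and 8 higher and 6 lower in the same order, with Pcolce2, an enhancer of procollagen cleavage, higher in kidney-derived than in heart-derived cells (4.61 ± 0.13). Of 10 fibrillar procollagens, 1 was higher and 1 lower, 1 higher and 3 lower, and 3 higher and 0 lower. Chaperones outside the ER were counted alongside: of 24 cytosolic and nuclear heat shock genes, 7 were higher and 4 lower, 8 higher and 6 lower, and 11 higher and 4 lower, and of 13 mitochondrial chaperones and proteases 2 were higher and 3 lower, 2 higher and 7 lower, and 6 higher and 0 lower.

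**Figure D5:**
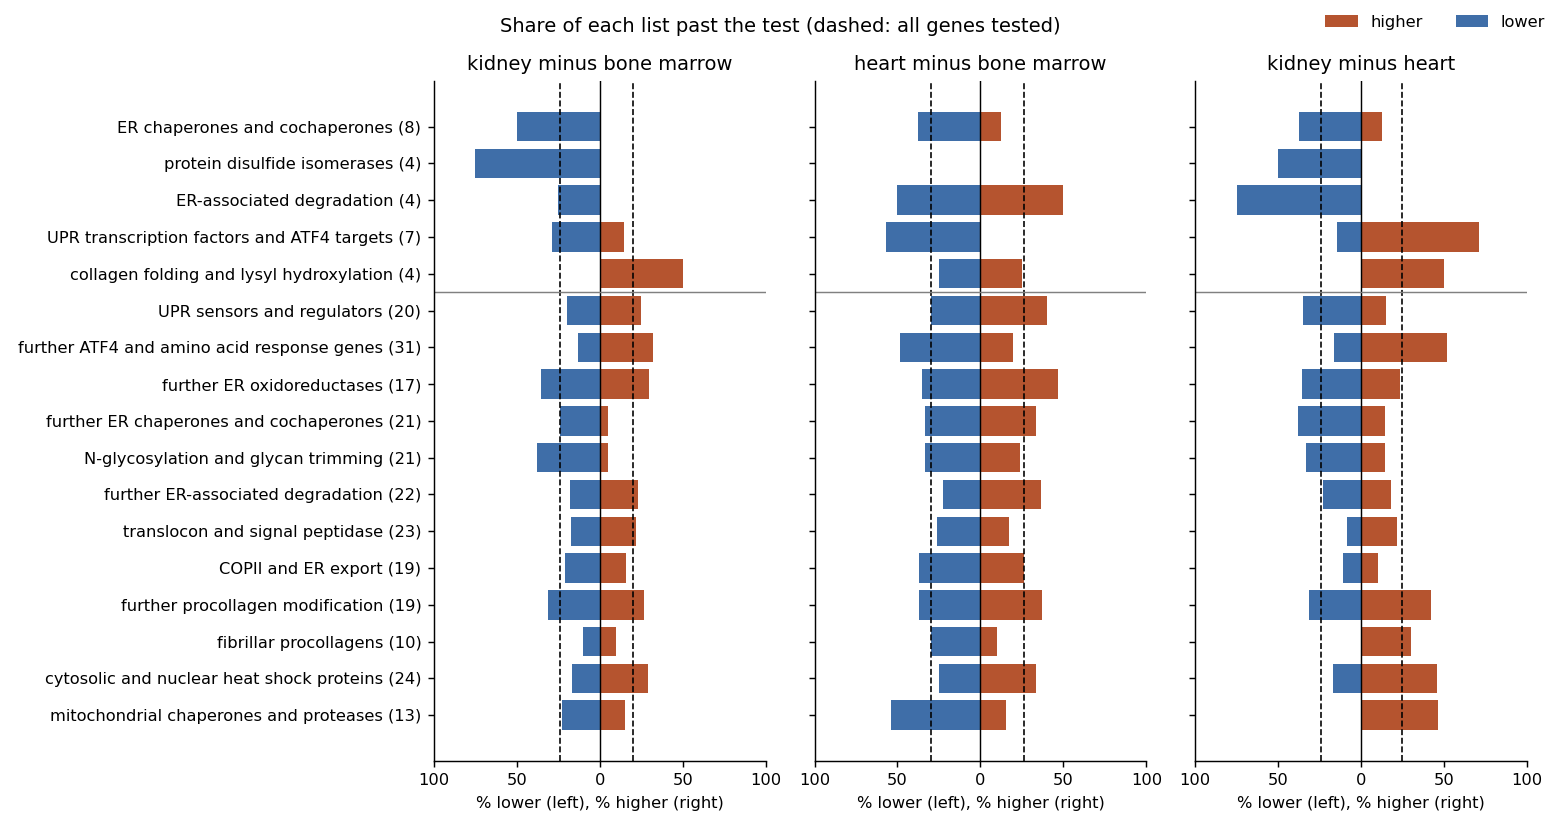
Share of the tested genes of each list that were higher (to the right) and lower (to the left) in the 3 comparisons, in percent, with the number tested in brackets and dashed lines at the shares of all genes. The upper 5 rows hold the 27 genes by role and the lower 12 the further lists. In kidney-derived against heart-derived cells the bar of the further ATF4 genes, 16 of 31 higher, runs past the dashed line at 24.9%. Other bars of that panel do so too. Among them are heat shock genes (11 of 24), mitochondrial chaperones and proteases (6 of 13) and further procollagen modification (8 of 19).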

How the data were processed

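Total RNA of 12 mouse samples, 4 per tissue, was hybridised to single-colour Illumina arrays. The deposited raw table holds 45281 rows of summarised intensity, not background-corrected, and, beside each intensity, a detection value that the header calls a p-value. The deposited values are fractions that rise with the signal within each array, and so were read as 1 minus a detection p-value against the array's negative controls. The raw table's 35746 identifiers include 6798 listed on several rows. The authors' processed intensity table, made with lumi per the submitters' processing notes (no settings stated), holds 1 value per identifier on a linear scale with array medians of 18.84 to 18.97 units and the same rank order as the raw values; it was used as an alternative, after log2. Its direction is that of the raw intensity, and its transformation is unknown.

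Raw intensities were processed with neqc of limma 3.58.1 in R 4.3.3 (normexp with the detection values, quantile normalisation, offset of 16). Rows detected above 0.95 on at least 4 of 12 arrays were kept (20649), named through the platform annotation, which can be old (26385 identifiers with 1 symbol, 18 with several, 9343 unlisted), and the brightest row stood for each of 10797 genes. One limma model of all 12 arrays, with tissue as its only term, gave moderated statistics (eBayes with trend), adjusted by Benjamini-Hochberg over all genes. It was tested on simulated data. Promoters and their coordinates are from RefSeq, GRCm38.p6.

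The genes and lists were chosen with earlier results of these data known. All 27 tested genes are named; values on every array are given for those past the threshold with a log2 change of at least 1 and for Xbp1, Atf4 and Ddit3. Genes of the further lists are named among the 4 with the largest called changes per list and comparison, the sensor genes excepted. The alternatives tried are under the closing section.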

Additional observations from a re-analysis of the deposited data

Results flagged for a closer look

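Over the 27 genes, 81 groups of 4 arrays were examined for a single array far from the other 3, by the gap to its nearest neighbour over the range of the group, and 3 groups were past the critical value of Dixon's test. Chance alone flags about 1 in 20 groups. Chac1 read 11.97 on marrow replicate 1 against 12.63 to 12.69 on the other marrow arrays, a ratio of 0.923. Serpinh1 read 15.59 on marrow replicate 1 against 15.69 to 15.70, a ratio of 0.899. Asns read 13.38 on heart-derived replicate 3 against 13.24 to 13.26, a ratio of 0.836.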

How the results depend on the processing

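Of the 44 changes called among the 27 genes, 33 were called in every setting that keeps the call rule and gave the gene a value, and 36 in all of those that keep every array. These settings numbered 21 for each gene except Dnajc3, which had 19 because it was not tested with the authors' processed values or with only the first row of each identifier. Of the 44, the direction turned only for Edem1, whose log2 change was -0.13 in heart-derived cells against marrow MSC and 0.17 in kidney-derived against heart-derived cells with the authors' processed values, and -0.090 and 0.115 with only the first row of each identifier, a setting chosen after seeing the data. Both settings read another Edem1 probe, and neither passed there. They also lost Ddit3 in kidney-derived cells against marrow MSC (-0.09). A further limit of 2-fold left 1 gene called, 1 higher and 0 lower, among the 27 and 913 among all genes in kidney-derived cells against marrow MSC. In heart-derived cells against marrow MSC it left 1, with 0 higher and 1 lower, and 1512 among all, and in kidney-derived against heart-derived cells 1, with 1 higher and 0 lower, and 1168 among all.

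Leaving out 1 array at a time gave 11 to 16 genes called in kidney-derived cells against marrow MSC, 11 to 18 in heart-derived cells against marrow MSC and 16 to 21 in kidney-derived against heart-derived cells. The highest counts came without marrow replicate 1, which added 12 calls and lost 1, and which had the lowest array weight, 0.285. With array weights, 16, 17 and 21 genes were called in the same order. The other background, normalisation, filter and probe settings left these counts within 11 to 18.

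The replicate numbers of the labels were checked for pairing: arrays with the same number deviated from their group means with correlations of -0.203 to 0.133, so the numbers were not taken to pair the arrays. With the number as a replicate block, 13, 14 and 17 of the 27 genes were called, and 4737, 6009 and 5275 of all genes. Hsp90b1 was added (adjusted p = 0.0426) and Serpinh1 lost (adjusted p = 0.0567) in kidney-derived cells against marrow MSC. A fit with the slide as a block was not run because the headers name no slide. Signal over background limits Hspa5, Hyou1 and Edem1, whose rows were dim, and Canx and Manf, which were not well above background.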
